A study of Mus musculus with 54 samples.

Results

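Rex2 is a mouse KRAB zinc finger protein (KZFP) encoded in the KZFP gene cluster at the distal end of chromosome 4. All peaks of its deposited ChIP-seq list were taken, which gave 128 peaks of 25012 in the lists of 42 KZFPs. Rex2 was over-expressed with a C-terminal HA tag in the mouse embryonal carcinoma line F9 from a stably integrated transposon vector in puromycin-selected cells. Chromatin was precipitated with an anti-HA antibody and compared with the mixed input of batch 4. The other 41 KZFPs were treated alike in the same line, each with 1 library, so there is no replicate of Rex2. The F9 line and the reference genome come from different mouse strains, so an annotated repeat copy need not be present in the cells.

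KZFPs contact DNA through an array of zinc fingers and recruit the corepressor TRIM28 (KAP1) through their KRAB domain, which leads to heterochromatin over the bound site. Many of their targets are endogenous retroviruses. Early transposons (ETn) are a family of mouse endogenous retroviruses that have lost their coding genes. They are flanked by 2 long terminal repeats (LTRs) and depend on proteins of the related coding ETnERV (MusD) elements for their spread. ETn insertions are a known source of spontaneous mouse mutations.

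Most Rex2 summit windows that resembled another window of the list fell into 2 families of repeats. Of the 128 peaks, 36 lay on ETn sequence, 27 on a second, unnamed repeat, 20 at annotated promoters outside these repeats and 45 elsewhere. Among the last 2 classes, 10 windows formed 5 pairs of similar sequence. No repeat annotation was used here. The name ETn rests on the structure of the proviruses and on the study's assignment of these peaks, the name ETnERV on the similarity to ETn and on that assignment, and the second repeat is left unnamed. The bound ETn stretch is shown first because the contrasts between genome copies turn on it. The sequences below are 5′ to 3′ from GRCm39. In ETn they are on the strand opposite to the direction given here to the reference provirus. That direction was set by its own summit, with the nearer LTR as the left one. Capitals mark 2 elements: a stretch of 21 bases aligned with the RCADE motif of the study, which joins peak sequences with the amino acids of the zinc fingers, and the match of 15 bases to the study's MEME motif. In the second repeat the first capitals mark the 7 bases that it shares with that stretch.

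ETn, the highest Rex2 peak (fold 63.6, chr1:6083105-6083189, + strand): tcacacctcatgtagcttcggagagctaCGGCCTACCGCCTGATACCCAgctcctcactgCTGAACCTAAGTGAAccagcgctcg
ETn copy without a Rex2 peak (chr10:24206798-24206882, + strand): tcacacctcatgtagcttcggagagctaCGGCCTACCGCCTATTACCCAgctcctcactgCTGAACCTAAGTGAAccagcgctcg
ETn copy without a Rex2 peak (chr1:17011977-17012061, + strand): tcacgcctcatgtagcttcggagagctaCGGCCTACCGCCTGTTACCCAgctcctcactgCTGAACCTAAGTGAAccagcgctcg
ETnERV-like peak (fold 10.7, chr15:8851735-8851819, + strand): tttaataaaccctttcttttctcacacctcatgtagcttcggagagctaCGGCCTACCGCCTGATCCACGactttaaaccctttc
Second repeat, its highest peak (fold 25.8, chr1:144017446-144017530, + strand): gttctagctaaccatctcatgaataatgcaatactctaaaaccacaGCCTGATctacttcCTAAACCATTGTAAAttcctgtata
RCADE motif of Rex2: CGGCCTACCGCCTGATCCACA

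ETn sequence made up the top of the list. Of the 10 highest peaks 8 were on ETn, and of the 30 peaks with a fold enrichment of at least 20 over input 19 were (63.3%). The highest was intergenic with a fold of 63.6 and its summit at chr1:6083166. The next lay between genes on chromosome 5 (fold 53.5, 12582 bp from Mrfap1), in an intron of Vnn3 (47.5), in an exon of Ccdc7b (43.1) and between genes 84861 bp from Cdk6 (37.3). Vnn3 encodes a pantetheinase of the vanin family, and Cdk6 a cyclin-dependent kinase of the G1 phase. The remaining ETn peaks of the first 10 were in an intron of Sbspon (34.5), between genes 126671 bp from Spata31e1 (33.8) and in an exon of the lncRNA Gm31793 (30.2). Over the 36 ETn peaks the fold ran from 11 to 63.6 with a median of 21.7, beside medians of 14.7 for the second repeat, 11.5 for the promoter peaks and 13.4 for the others. The classes overlapped widely in fold. Of the 36 peaks, 24 were intergenic, 9 intronic and 3 exonic, and none was at a promoter.

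**Figure D1:**
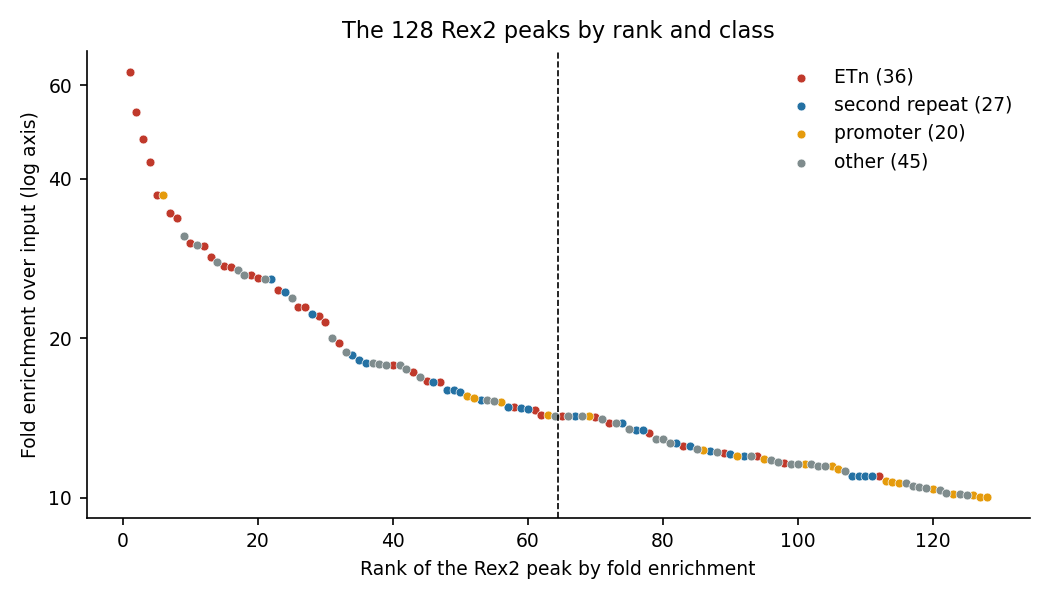
Fold enrichment over the batch 4 input (log axis) against rank for the 128 Rex2 peaks, each point 1 peak coloured by class, with a dashed line between ranks 64 and 65. ETn peaks fill 8 of the first 10 ranks, and promoter peaks lie mainly to the right of the line.

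The bound proviruses had nearly identical LTRs. The LTRs of a provirus are alike when it inserts and diverge with time. Around 30 of the 36 peaks, 2 direct repeats enclosed the summit, with a median span of 5498 bp from end to end and an LTR identity of 97.2% to 100% (median 99.1%). The search kept only repeats at 90% identity or more. The 147 ETn proviruses without a peak ran from 91.1% to 100% (median 97.9%), so high identity was not particular to the bound ones. The reference used to place the summits spans chrX:37801832-37807329 on the + strand, with 2 identical LTRs of 323 bp. Its longest run between stop codons was 91 codons, read on that strand only and without requiring a start codon. A longer provirus at chr9:84765983-84772915, of 6933 bp, had LTRs at 98.1% identity and a run of 512 codons measured alike. It carried a Rex2 peak with a fold of 21.4 and served as the second ETn reference. Its span is near the 7043 bp of the ETnERV-like provirus below, and whether it is ETn or ETnERV was not tested. All 36 Rex2 windows counted as ETn also aligned to the short reference.

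On the reference provirus the 36 summits gathered at 1 end of the internal region. The reference was oriented so that the LTR nearer its own summit is the left one, so left is a convention and not a result. Their positions ran from 377 to 526 with a median of 500, which is 177 bp beyond the left LTR, and 0 of 36 lay in an LTR. The MEME match occupied positions 471 to 485 and the stretch of 21 bases positions 497 to 517, with 11 bases between them. Other KZFPs had summits on the same provirus at other places. The summit medians were 3872 for Zfp_MB014 (159 windows), 4839 for Zfp_MB023 (55), 3889.5 for Zfp_MB035 (22) and 3545 for Zfp_MB026 (11). The range of Rex2 overlapped that of none of these 4 lists. Of the 30 proviruses with a Rex2 peak, 17 also carried a Zfp_MB014 peak, 2 a Zfp_MB026 peak, 2 a Zfp_MB035 peak and 1 a Zfp_MB023 peak.

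**Figure D2:**
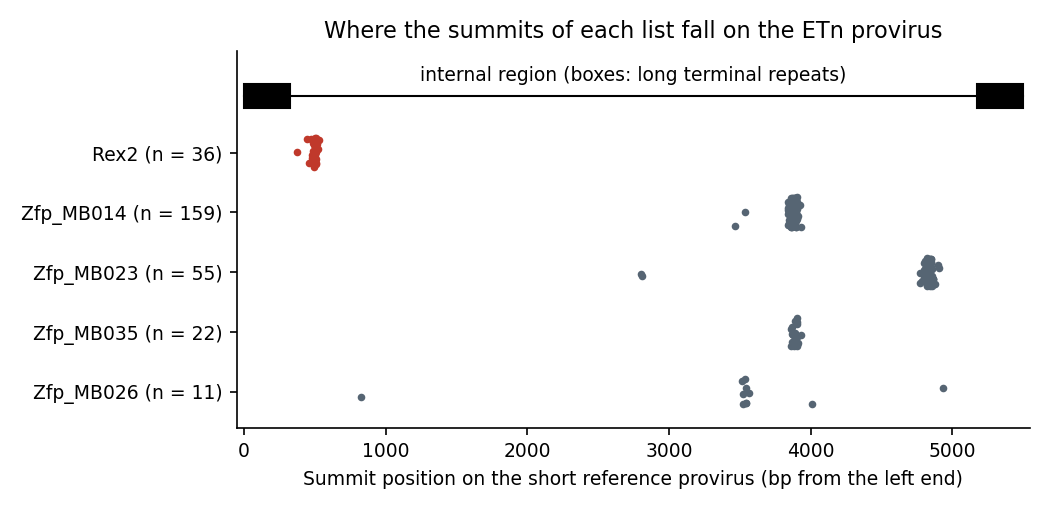
Summit position (bp from the left end) on the short reference provirus, 1 point per peak, for Rex2 and the 4 other lists with at least 10 aligned windows. The 36 Rex2 summits lie between 377 and 526, just beyond the left LTR, away from the summits of the other lists.

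To place Rex2 among the lists by its ETn share, each list was treated as 1 value. The share of peaks on ETn sequence was 28.1% for Rex2 (95% exact binomial interval 20.5% to 36.8%, 36 of 128), the highest of the 42 lists. Zfp_MB023 followed at 19.0%, Zfp_MB014 at 12.8% and Zfp_MB035 at 4.82%, and 31 lists were at 0. An exact two-sided permutation test over the lists gave p = 0.0476, the smallest that 42 lists allow, and an adjusted p of 0.143 over 3 tests. The share did not pass after adjustment, which a single test in this design cannot do. The study assigned MMETn-int and ETnERV-int to Rex2 from these same peaks, so the share is not independent evidence of that target. The reference proviruses were found around the largest family of Rex2 windows, the same 36 peaks then counted. All lists were scored on these references, so the first rank of Rex2 was favoured in advance. The test therefore cannot show that Rex2 stood apart.

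**Figure D3:**
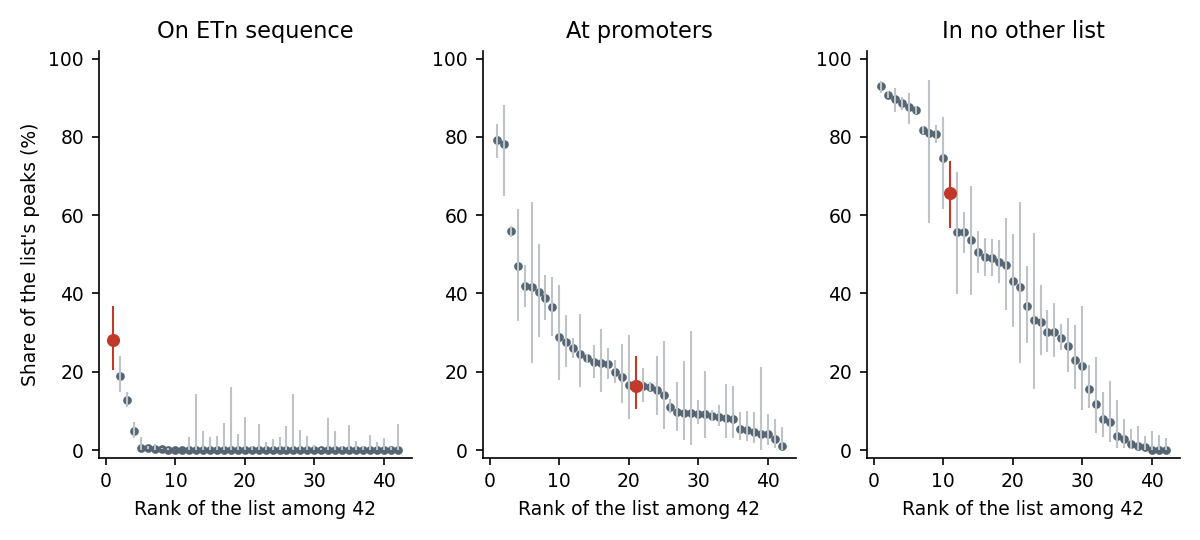
Share of each list's peaks (%) on ETn sequence, at promoters and in no other list, with lists ordered from the highest share to the lowest, lines for exact 95% binomial intervals and Rex2 in red. Rex2 is first of 42 for ETn sequence at 28.1%, scored on references from its own peaks, and ranks 21 and 11 for the other shares.

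Most ETn copies of the genome had no Rex2 peak, and the copies with and without one differed in the stretch of 21 bases. The 200 bp of the reference around the median summit had 261 copies on the chromosomes of GRCm39 (at least 100 bp at 80% identity), of which 36 carried a Rex2 peak (13.8%, interval 9.85% to 18.6%). The MEME match did not separate them, since it was present in 36 of 36 copies with a peak and in 207 of 225 without (92.0%). In 46 copies the stretch was as in the bound sequence above, and 33 of these had a peak (71.7%, interval 56.5% to 84.0%). Where 2 bases differed (G14A and A15T, counted from 1 at the 5′ end of the capitals), 0 of 55 copies had a peak, which allows a share of up to 6.49%. Where 1 base differed (A15T), 0 of 18 copies had a peak, and with C9T alone 0 of 4 did. The 3 bound copies with a changed stretch held T6A (fold 13.8) or C19T (17.3 and 11.95), all below the ETn median of 21.7.

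The copies with G14A and A15T were close to the bound copies in sequence and in LTR identity. Their identity to the reference stretch had a median of 98% and reached 99%, against a median of 99.5% for the unchanged copies. Among copies of at least 98% identity, 33 of 43 with the unchanged stretch had a Rex2 peak (76.7%, interval 61.4% to 88.2%) and 3 of 50 with a changed one (6.00%, interval 1.25% to 16.5%). Zfp_MB014, whose peaks lay elsewhere on the same proviruses, had a peak on 17 of 37 proviruses with the unchanged stretch (45.9%, interval 29.5% to 63.1%) and on 19 of 39 with G14A and A15T (48.7%, interval 32.4% to 65.2%). The median LTR identity was 99.05% and 99.4% in these groups. Whether other differences between the copies, such as their presence in F9 cells, move with the stretch was not tested. The stretch was picked from the bound copies after these were seen, so its presence in them is a description.

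**Figure D4:**
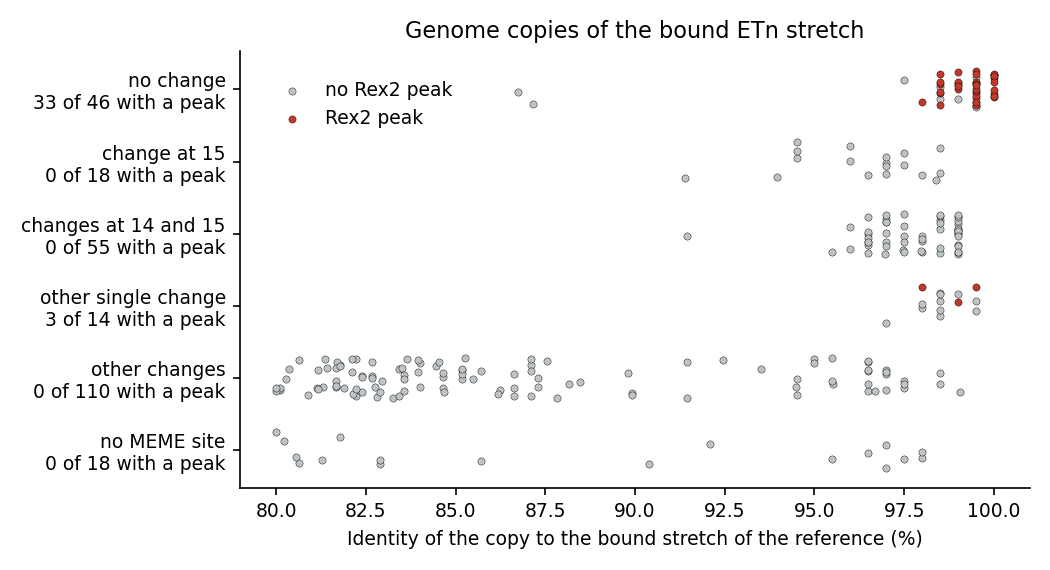
Identity (%) to the bound 200 bp of the reference for the 261 genome copies, in rows by the bases of the 21-base stretch, with red points for copies with a Rex2 peak. Peaks are on 33 of 46 copies with no change and on 0 of 55 copies with changes at positions 14 and 15, although these reach 99% identity.

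Reads could not always be placed on a single copy. Of the 36 ETn summit windows of 200 bp, 17 had at least 1 identical copy elsewhere in the genome and 1 had 13. The authors kept 1 of several equally good alignments at random, so identical copies share reads, and which of them was bound cannot be told apart. Of the 13 copies with an unchanged stretch and no peak, 7 were identical to a bound copy over the site.

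ETnERV-like sequence carried 2 Rex2 peaks. They lay on the X chromosome (fold 14.3, summit chrX:122749064) and on chromosome 15 (fold 10.7, summit chr15:8851802, within 448 bp of a start of the lncRNA Gm62216). They aligned to the ETn reference at 100% identity over 93 and 98 bp, under the 100 bp required, and are counted among the non-ETn peaks. With 50 bp they counted as ETn, which gave 38 peaks (29.7%). The first was in a provirus of 7043 bp with LTRs at 99.1% identity. Both had the stretch with 3 and 1 mismatches to the RCADE motif, neither held the MEME match, the second overlapped a Zfp_MB023 peak, and the sequence beyond the stretch was different from that of ETn. Of 219 copies of this sequence 2 had a peak (0.913%, interval 0.111% to 3.26%), and 0 of the 92 copies with the commonest form of the stretch (5 mismatches to the motif) and 0 of the 32 with the next (2 mismatches) had one.

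The second repeat carried the same 7 bases at another distance. Its 27 peaks formed the second largest family of summit windows, with folds from 11 to 25.8. In 25 of 27 windows GCCTGAT was present, beside 35 of 36 ETn windows, 4 of 45 other windows, 1 of 20 promoter windows and 1.27% of the 24847 windows of the other 41 lists. The promoter window and 1 of the 4 other windows were those of the 2 ETnERV-like peaks. The MEME match was in 22 of 27 windows. In ETn, 16 bases lay between GCCTGAT and the MEME match in all 35 windows that held both, and in the second repeat 7 bases did in all 20. The MEME match was rare in the other lists, in 12 of 24847 windows (0.0483%). Of these, 11 were in Zfp_MB016 and 1 in Zfp982, lists that also had peaks on the second repeat. In 2 windows of the other lists GCCTGAT and the MEME match lay 7 bases apart too. Both motifs were found by the study on these same peaks, and GCCTGAT was chosen after the windows were seen.

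Copies of the second repeat showed the same contrast over these 7 bases. Of 1133 copies, 27 had a Rex2 peak (2.38%, interval 1.58% to 3.45%). Of 132 copies with GCCTGAT 7 bases before the MEME match 20 had a peak (15.2%, interval 9.51% to 22.4%), and of 741 with the MEME match and another sequence there 2 had one (0.270%, interval 0.0327% to 0.972%). The other 5 peaks were on the 260 copies without the MEME match (1.92%, interval 0.627% to 4.43%). The commonest other form, with the single change T4C, had a peak on 2 of 241 copies. The forms T4A and T4G had a peak on 0 of 172 and 0 of 49 copies. In the ETnERV-like copies GCCTGAT did not go with a peak in this way. The 2 commonest forms of the stretch there hold it and had a peak on 0 of 92 and 0 of 32 copies, and the 2 bound copies hold it too. The copies with and without GCCTGAT had median identities of 92.5% and 90.9% to the window used as query. Peaks also went with identity, on 12 of 168 copies (7.14%) at 95% or more and on 15 of 965 (1.55%) below. The part of identity in the contrast over GCCTGAT was not tested.

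The peaks of the second repeat lay in or near varied genes, 16 of 27 in introns. The highest was in an intron of Rgs13 (25.8), a regulator of G protein signalling. Others were in introns of Mapkap1 (18.2), a subunit of mTOR complex 2, Atp7b (16.5), a copper transporter, and Kl (12.3), which encodes the FGF23 co-receptor klotho. A further peak, with a fold of 22.2, lay 9845 bp from the zinc finger gene Zfp868. A Zfp982 peak overlapped 11 of the 27. Relative to the Rex2 summits, and in the direction from GCCTGAT to the MEME match, its summits lay at -582 to -417 bp, and 309 of the 1133 copies had a Zfp982 summit within 800 bp. On these copies the Zfp982 and Rex2 peaks overlapped while their summits stood apart. A Zfp_MB016 peak overlapped 3 of the 27, with summits at -90 to 278 bp and a median of 0. Of the 1133 copies, 18 had a Zfp_MB016 summit within 800 bp.

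Promoter peaks were mainly in the lower part of the list. A summit lay within 1000 bp of an annotated transcription start for 21 of 128 peaks (16.4%, interval 10.5% to 24.0%), rank 21 of the 42 lists, and 8.38% of the genome lies that near a start. The exact permutation test over the lists gave p = 1 (adjusted p = 1). Of the 64 peaks with the higher folds 5 were at promoters (7.81%, interval 2.59% to 17.3%), and of the 64 with the lower folds 16 were (25%, interval 15.0% to 37.4%). The share of ETn ran the other way, 27 of 64 (42.2%, interval 29.9% to 55.2%) and 9 of 64 (14.1%, interval 6.64% to 25%). The second repeat was even between them, with 14 and 13 peaks. The fold limit between the groups was 14.3. These shares are descriptions of 1 library.

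The genes with a start near a Rex2 summit were of several types. Of 30 genes, 9 were protein coding, 10 lncRNAs, 2 snRNAs and 1 a miRNA, and 8 were processed pseudogenes or annotated as miscellaneous RNA. Among the fixed groups there was 1 zinc finger gene (Zbtb7a, a transcriptional repressor), and there were 0 histone and 0 ribosomal protein genes. The shares of these groups over all annotated genes were not computed. The counts therefore do not show whether a group was over- or under-represented. The highest promoter peak, rank 6 of the list, lay 585 bp from a start of the lncRNA A930015D03Rik and 882 bp from the nearest start of H2-T23, which encodes the nonclassical MHC class I molecule Qa-1. Its fold was 37.2, and it overlapped no peak of another list. The other coding genes were Pir (14.3), Zbtb7a (12.3), Tmeff1 (11.98), Gm45844 (11.5), Chac1 (10.7), Polrmt (10.7), Ipo9 (10.4) and Inpp5f (10.04). Polrmt encodes the mitochondrial RNA polymerase and Chac1 an enzyme that degrades glutathione. The snRNA genes Gm26444 and Gm25679 had folds of 15.4 and 11.6, the miRNA gene Mir6352 had 15.1 and the lncRNA Neat1, which builds paraspeckles, had 10.1. The MEME match was in 0 of the 20 promoter windows, whose median GC content was 60.5% beside 47.5% for ETn. None of the 5 lowest peaks of the list was on ETn or the second repeat. They lay at Btbd8 (10.2), 23326 bp from Pik3cb (10.1) and at Neat1 (10.1), Inpp5f and Gm5790 (both 10.04).

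No ETn peak overlapped a peak of another list, and 15 of 20 promoter peaks did. Of 128 Rex2 peaks 84 overlapped no peak of another list (65.6%, interval 56.7% to 73.8%), rank 11 of 42 lists, and the exact permutation test gave p = 0.524 (adjusted p = 0.786). By class, 36 of 36 ETn peaks were alone, 15 of 27 on the second repeat, 28 of 45 others and 5 of 20 at promoters. The 44 shared peaks overlapped peaks of 23 lists, 17 of them in 5 or more lists each, and these 17 were 9 promoter and 8 other peaks. The start of Polrmt had peaks in 12 other lists, the most of any Rex2 peak. The lists share the cell line, the antibody and the removal of peaks seen with the empty vector.

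Zfp_MB035, which the study also linked to MMETn-int, shared 19 peaks with Rex2, and none was on ETn or on the second repeat. The 19 were 14.8% of the Rex2 list and 4.17% of the 456 Zfp_MB035 peaks on chromosomes. All but 1 were also in further lists, with a median of 7 other lists. The 5 highest in Rex2 were in an intron of Unk (fold 29.9 for Rex2 and 18.4 for Zfp_MB035, with Zfp600 also there), 4986 bp from Nlrp12 (17.9 and 13.2), on the Y chromosome in the lncRNA Gm57952 (17.9 and 20.02, in 11 lists), 31350 bp from Mid1 (17.8 and 14.5, in 9 lists) and at the lncRNA Gm57020 (15.5 and 20.3, in 8 lists). The miRNA genes Mir290a to Mir295 also lie near the peak by Nlrp12, and Erdr1x lies nearer than Mid1 to the peak named with it. Unk is an RNA-binding translational repressor, and Mid1 a ubiquitin ligase of microtubules. The folds are relative to inputs of different batches and are given side by side only. With a fold of at least 20 in both lists, 0 peaks were shared. The peak that was in Zfp_MB035 alone lay 42552 bp from Il1rapl1 (11.95 and 11.88).

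**Figure D5:**
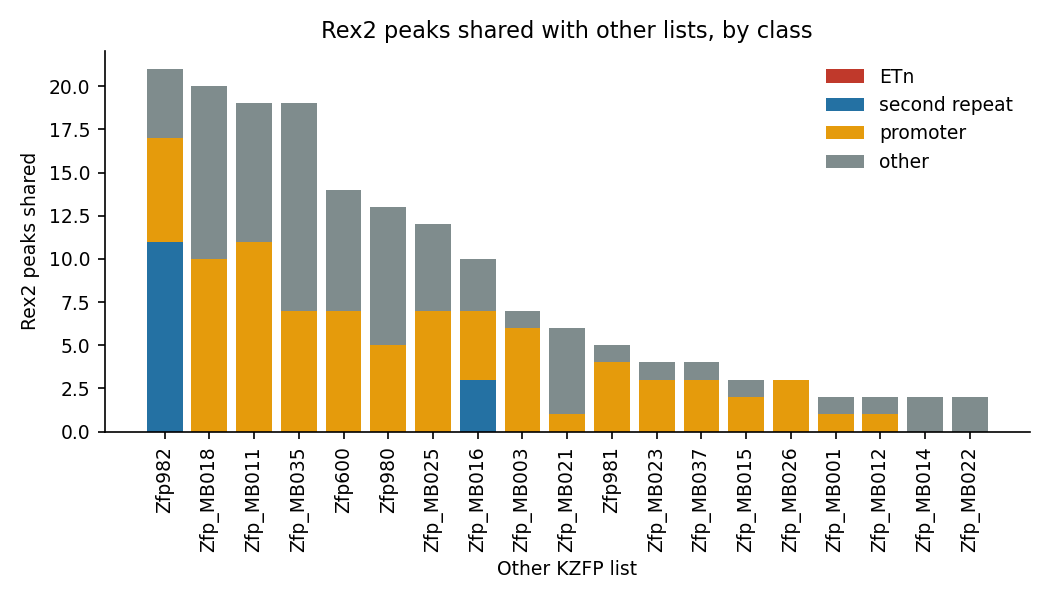
Number of Rex2 peaks that overlap a peak of each other list by at least 1 bp, for the lists with more than 1 shared peak, stacked by class. No bar holds an ETn peak, and the second repeat appears only under Zfp982 (11 peaks) and Zfp_MB016 (3).

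Zfp982 and Zfp_MB018 shared more peaks with Rex2 than Zfp_MB035 did. Zfp982 overlapped 21 Rex2 peaks (0.443% of its own 4745), of which only 3 had summits within 100 bp. Zfp_MB018 overlapped 20 (11.8% of its 170) with 19 summits within 100 bp, Zfp_MB011 overlapped 19 and Zfp600 14. These 14 Rex2 peaks overlapped 16 of the 51 Zfp600 peaks (31.4%), a larger share than in Zfp982, Zfp_MB018, Zfp_MB011 or Zfp_MB035. Of the 14, 12 were in 5 or more lists and 0 in Zfp600 only. Zfp_MB025, with the first 1 and the last 4 fingers of Rex2, had 12 of its 55 peaks shared (21.8%). Zfp_MB014, also with the first 1 and the last 4, had 2 of its 1250 peaks shared (0.16%). Zfp_MB018, Zfp980 and Zfp_MB015 share no run of fingers with Rex2 at either end. Of their peaks 11.8%, 12.4% and 12.5% were shared. Whether common fingers go with shared peaks was not tested. Zfp600 has the longest run of fingers in common with Rex2 from the start of the array, compared by the residues of each finger that touch bases. The first 11 of the 15 fingers of Rex2 are the same in Zfp600, and the last fingers differ. Of the 51 Zfp600 peaks, 0 were on ETn sequence. Zfp_MB035 shares the first 5 and the last 2 fingers of Rex2 and had 22 of 456 windows on ETn, at another place on the provirus. Zfp6001, Zfp6002 and Zfp6003 share as many at each end, had 0 windows on ETn and overlapped 0, 0 and 1 Rex2 peaks. The Rex2 array was found in no other list.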

How the data were processed

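ChIP-seq peak lists of 42 KZFPs were used. The 12 other samples of the labels (4 empty vector controls, 5 mixed inputs and 3 HGTC8 libraries) were not used here. The authors aligned 100 bp paired reads to GRCm39 with BWA, keeping 1 of several equally good alignments at random, and called peaks per library with MACS2 2.2.7.1 (version from the submitters' processing notes) against the mixed input of the batch. Peaks that overlapped one of an empty vector control were removed and a fold limit of 10 was applied (lower for lists left with very few peaks). The deposited values of a peak are its fold over input (a ratio), the -log10 of p and of q, a summit position and a display score. The score and the p column were not used. The lists hold no read counts, so depth is unknown per peak. By the study's read numbers the Rex2 library was the shallowest of the 42.

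Windows of 200 bp around summits were aligned with blastn 2.17.0 (at least 100 bp at 80% identity) to each other, to reference proviruses (repeats of 250 to 450 bp, 90% identical, spanning 4 to 9 kb) and to GRCm39. The reference proviruses were taken from around the summits of the largest family of Rex2 windows. Promoters lie within 1000 bp of a GENCODE M39 start. Peaks were matched to chromosomes by the order of the assembly's accessions, and 37 of all lists on scaffolds were left out. A list is 1 value in the exact permutation tests, with Benjamini-Hochberg adjustment over 3 tests. Intervals are exact (Clopper-Pearson, 95%) and cover counting error only. Copies were counted as bound when a peak overlapped them; bound and unbound copies were compared by counts without a test. Methods were tested on simulated data. Peaks named are the 10 highest, the 5 highest on ETn and among those shared with Zfp_MB035, and the 5 lowest; genes named are those with a promoter at a summit and those at named peaks, and the others (Rgs13, Mapkap1, Atp7b, Kl, Zfp868, Il1rapl1, B3gnt2, and the distant genes that only locate an intergenic peak) were chosen after their values were seen. The members and lists were chosen with earlier results of these data known, and the queries for the second repeat and the ETnERV-like sequence, the 21-base forms and GCCTGAT were chosen after seeing the peaks.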

Additional observations from a re-analysis of the deposited data

How the results depend on the processing

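Rex2 has 1 library, so no replicate could be left out. No paired analysis was possible because each KZFP has a single library and the replicate numbers in the labels belong to controls and inputs without a file used here. Of 24 alternatives, 17 had a test. Since 1 list cannot pass the adjusted threshold alone, its side says nothing of stability for the ETn share. The reference proviruses came from Rex2 peaks in every setting, so the first rank of Rex2 was favoured in each. The ETn share stayed first among the lists and ran from 28.1% to 63.3% (p from 0.0476 to 0.100, adjusted p from 0.143 to 0.300), the promoter share from 3.33% to 21.1% (p from 0.556 to 1) and the share in no other list from 76.6% to 93.3% (p from 0.0476 to 0.800, adjusted p from 0.0714 to 1). The lowest p of the last share, 0.0476, came from keeping only Rex2 peaks with a fold of at least 20 against the other lists unfiltered, so it does not compare like with like. Of the peaks with a fold of at least 20, 3.33% were at promoters and 93.3% in no other list. Ranking by -log10 q gave the same promoter shares and 43.8% and 12.5% for ETn. The share of peaks shared with Zfp_MB035 was 12.5% with summits within 100 bp, 10.2% with the stricter overlap and 0% with a fold of at least 20 in both lists, where 30 Rex2 peaks remain.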

Other observations

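Among the 45 peaks outside ETn, the second repeat and promoters, 28 overlapped no other list, and some were among the highest of the list. The highest, rank 9, was in an intron of Psmd5 (fold 31.2), which encodes a chaperone of proteasome assembly. Rank 14 was in an intron of B3gnt2 (27.8), a glycosyltransferase. None of these 45 windows held the MEME match, and 4 held GCCTGAT. The 45 include the ETnERV-like peak on the X chromosome, and no repeat annotation was used, so others may lie on repeats too.

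Rex2 had 4 peaks on the Y chromosome, none on ETn or the second repeat. All 4 were shared with Zfp_MB035 and with at least 4 further lists, and 2 peaks near Erdr1x and Mid1 on the X chromosome were shared with Zfp_MB035 and at least 4 further lists too. Of the Y peaks, 1 was in an intron of Erdr1y, 2 had windows like each other and 1 had a window like that of an X peak. These sites are therefore not all separate sequences. The peak with the highest -log10 q of the list (270) was at the lncRNA Gm57020 on chromosome 9, with a fold of 15.5, and it was in 8 other lists, while the highest -log10 q of an ETn peak was 216.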
